A study of Homo sapiens with 6 samples.

Results

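The transcripts of 9 genes were followed in cultures of pancreatic ductal adenocarcinoma (PDAC), from the established human lines PK-1 and Panc-1. They are FABP5, the 3 peroxisome proliferator-activated receptor (PPAR) genes PPARD, PPARG and PPARA, and the PPAR-regulated lipid genes ANGPTL4, PLIN2, PDK4, CPT1A and ACADVL. The genes were taken by their symbols from the 53826 entries listed for each library, and each of the 9 is listed once. PK-1 cells and Panc-1 cells were each sequenced as a control, after 24 h with RARγi-1 (LY2955303) and after 24 h with RARγi-2 (MM11253), which gives 6 libraries and 1 library per condition. Both inhibitors are antagonists of retinoic acid receptor gamma (RARγ), a nuclear receptor that binds retinoic acid. Neither the doses used for sequencing nor a vehicle for the controls is stated. The title of each library names its inhibitor, but the treatment field of the libraries titled RARγi-2 names RARγi-1. The titles were followed, so each RARγi-2 value below belongs to a library titled RARγi-2.

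FABP5 is a small cytosolic protein that binds long-chain fatty acids and retinoic acid and is known to carry these ligands to the nuclear receptor PPARδ. The related protein CRABP2 is known to carry retinoic acid to the retinoic acid receptors, so the pair is often considered together where retinoic acid signaling is discussed. PPARs act on DNA as heterodimers with retinoid X receptors (RXRs), classically at direct repeats of the hexamer AGGTCA with 1 base between them (DR1). RARs also pair with RXRs and classically use repeats with wider spacing, such as DR2 and DR5. Genes that PPARs are known to switch on include PLIN2, whose protein coats lipid droplets, ANGPTL4, a secreted inhibitor of lipoprotein lipase, PDK4, a kinase that turns off pyruvate dehydrogenase, CPT1A, the enzyme that commits long-chain fatty acids to mitochondrial import, and ACADVL, which carries out the first step of the oxidation of very long chain acyl-CoA.

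The starts of PLIN2 and ANGPTL4 are shown because these genes had the largest fold changes among the 9, upward for PLIN2 and, in Panc-1, downward for ANGPTL4. Each sequence is the 250 bases before the RefSeq start in GRCh38.p14, written 5′ to 3′ on the strand of the gene, from chr9:19127493-19127742 (minus strand) for PLIN2 and chr19:8363905-8364154 (plus strand) for ANGPTL4. Capitals mark the palindromic E-box CACGTG in PLIN2, at bases -69 to -64 from the start, and the TATA box TATAAA in ANGPTL4, at bases -29 to -24.
PLIN2: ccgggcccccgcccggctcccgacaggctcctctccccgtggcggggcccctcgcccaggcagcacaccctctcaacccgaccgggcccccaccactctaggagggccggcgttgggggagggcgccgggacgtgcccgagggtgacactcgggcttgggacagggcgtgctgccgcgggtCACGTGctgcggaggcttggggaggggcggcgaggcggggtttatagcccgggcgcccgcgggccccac
ANGPTL4: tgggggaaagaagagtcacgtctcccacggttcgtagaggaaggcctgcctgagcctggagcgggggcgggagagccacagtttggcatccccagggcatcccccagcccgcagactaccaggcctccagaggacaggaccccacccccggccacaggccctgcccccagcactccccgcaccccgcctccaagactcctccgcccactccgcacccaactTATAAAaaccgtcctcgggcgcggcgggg
The PLIN2 sequence has a GC content of 78% and the ANGPTL4 sequence one of 68.8%. On either strand, the E-box is present before 6.34% of 35116 RefSeq starts and TATAAA before 10.7%; both motifs were searched after the letters had been seen. TATAAA also occurs on the opposite strand of the PLIN2 sequence, at -29 to -24. Neither sequence holds the single hexamer AGGTCA, which is present before 12.1% of all starts.

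Starts were used for 8 of the 9 genes, FABP5 being left out of the search, and these 8 genes have 15 starts, several of them overlapping starts of PPARG. A DR1 repeat, AGGTCANAGGTCA, with at most 2 mismatches was present before 0 of the 15 starts, against 2.57% of all starts, and the perfect form before 0 of 15, against 0.0171%. The DR5 repeat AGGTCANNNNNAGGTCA with at most 2 mismatches was present before 3 of 15 starts, against 2.1% of all starts, and the DR2 repeat AGGTCANNAGGTCA before 1 of 15, a start of PPARG, against 1.81%. The DR5 matches, shown because this spacing is the one RARs are known for, are the following, with capitals for the whole match.
PDK4, in chr7:95596517-95596766 (minus strand), bases -201 to -185: AGGGCACTCCGTGGTCA
PPARG, in chr3:12287118-12287367 (plus strand), bases -195 to -179: AGGAAAAGAAAAGGTCA
PPARG, in chr3:12288820-12289069 (plus strand), bases -24 to -8: AGGTCAGTGGTAGGTAA
The match in PDK4 and the first match in PPARG have 2 mismatches and the other match in PPARG has 1. The single hexamer is present before 3 of the 15 starts, each of them a start of PPARG. In 2 of these, whose windows overlap, it is the same hexamer counted again. These are matches of letters within windows of 250 bases, and nothing about binding can be read from them. At a share of 2.57%, 0 matches in 15 starts is unremarkable, so no lack of DR1 is read from it. Overlapping starts are not independent, and no count of a motif is read as particular to the 8 genes.

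Levels are given in TPM, the abundance of a transcript per length, scaled to a fixed total in each library, so that genes can be ordered within a library. The authors deposited log2 values in which anything under 1 TPM stands at 1 TPM, called the floor here. Between 13149 and 13652 entries per library lay above the floor, and the numbers of reads behind the values are unknown. A fold change compares (TPM + 1) of a treated library with (TPM + 1) of its line's control on the log2 scale, and the added 1 TPM understates changes of genes with low levels. There are no replicates and hence no p-values, so a gene was called higher or lower only past 2-fold. As a rough measure of error, the robust standard deviation between both treated libraries of a line was 0.29 (log2) per library in PK-1 and 0.23 in Panc-1. For a difference between libraries this amounts to 0.41 in PK-1 and 0.32 in Panc-1, called the fold change spread here, which includes true differences between the inhibitors. Both inhibitors of a line were compared with the same control library, so an error in that library enters both values.

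Markers of an epithelial cell were checked in both lines. PK-1 had 6 of 6 epithelial markers above the floor, and Panc-1 had 5, since CDH1 was at the floor in each library. The mesenchymal marker VIM was at 41.7 to 140 TPM in PK-1 and at 3962 to 6291 TPM in Panc-1. The summed level of the epithelial markers was 22498, 13507 and 14127 TPM in the PK-1 Control, RARγi-1 and RARγi-2 libraries and 8419, 1784 and 1485 TPM in those of Panc-1, so it moved with treatment in both lines. KRT8, KRT18, KRT19 and KRT7 lay below the control in each treated library, but the other markers did not all follow. In PK-1, CDH1 was at 170, 270 and 385 TPM and EPCAM at 578, 552 and 497 TPM in the same order. In Panc-1, EPCAM was at 13.4, 19.4 and 9.18 TPM, and KRT7 was low, at 2.40 to 4.19 TPM. The part of the summed level in the values of the lipid genes was not tested. All 4 adipocyte markers (ADIPOQ, PLIN1, FABP4 and LEP), all 3 fibroblast markers (DCN, LUM and PDGFRB) and all 3 endothelial markers (PECAM1, VWF and CDH5) were at the floor in all 6 libraries. Of 3 leukocyte markers, PTPRC and CD3E were at the floor throughout, and CD68, which also marks lysosomes, was at 19.8 to 276 TPM.

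**Figure D1:**
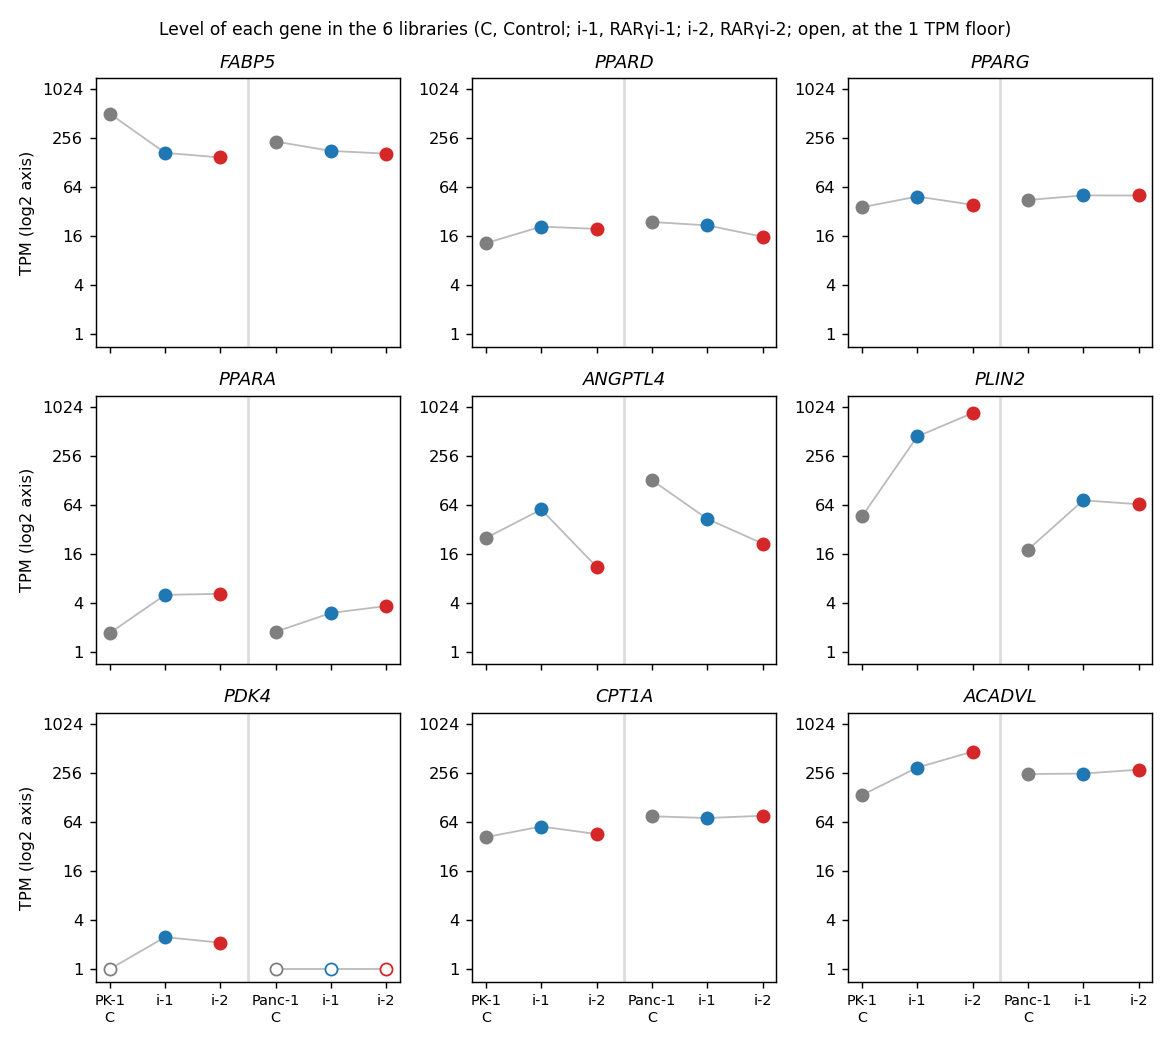
Level of each of the 9 genes in TPM (log2 axis) in the 6 libraries, with 1 point per library, Control in grey, RARγi-1 in blue and RARγi-2 in red, and open points at the floor of 1 TPM. FABP5 drops from 516 TPM in the PK-1 Control library, PLIN2 climbs from 46.1 to 860 TPM in PK-1, and ANGPTL4 is highest in the Panc-1 Control library at 129 TPM.

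First, FABP5 was examined, since the study uses it as a target gene of retinoic acid signaling. FABP5 (Entrez ID 2171) was at 516 TPM in PK-1 Control, 170 TPM with RARγi-1 and, with RARγi-2, 149 TPM. In Panc-1 it was at 234 TPM in Control, 180 TPM with RARγi-1 and, with RARγi-2, 166 TPM. In PK-1, FABP5 fell 3.02-fold with RARγi-1 (log2 fold change -1.59) and 3.44-fold with RARγi-2 (-1.78), while in Panc-1 the values were -0.38 and -0.49, past the fold change spread of 0.32 but short of 2-fold. Both treated libraries lay below the control in each line. Among all entries ordered from the lowest fold change, FABP5 stood at rank 206 of 13965 with RARγi-1 in PK-1 (1.475%) and at rank 589 of 14028 with RARγi-2 (4.199%), against 20.9% and 25.2% of the way up in Panc-1. The level in the PK-1 Control library ranked 248 among 13149 entries above the floor, and that in the Panc-1 Control library ranked 675 among 13296. In the 4 treated libraries the level of FABP5 lay between 149 and 180 TPM, a narrower range than that between the controls, which differed by 1.14 (log2), with PK-1 higher. In bulk RNA, fewer cells with a transcript and less of it per cell cannot be told apart.

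FABP5 has many processed pseudogenes, to which reads can be misassigned. Of 16 FABP5 pseudogene entries in the files, 0 were above the floor in any library. An antisense gene, AC009902.2, overlaps 94 of the 2077 exonic bases of FABP5 in GENCODE 29 (4.53%). It is not listed in the files, and whether the counting used strand is not given in the sources used here.

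Of the other 15 genes of the fatty acid and retinoid binding protein family, 5 were above the floor in any library, and FABP4, the adipocyte member, was at the floor in all 6. The retinoic acid carrier CRABP2 was at 116, 105 and 41.98 TPM in PK-1 Control, RARγi-1 and RARγi-2, and at 231, 86.4 and 37.2 TPM in the same order in Panc-1. CRABP2 thus fell past 2-fold with RARγi-2 in PK-1 (-1.45) and with both inhibitors in Panc-1 (-1.41 and -2.61), while its value with RARγi-1 in PK-1 was -0.15. RBP7, a retinol binding protein that is itself a known PPARγ target, was at 55.5 TPM in Panc-1 Control and rose 2.01-fold to 113 TPM with RARγi-1, and was at 103 TPM with RARγi-2 (0.89, short of 2-fold). In PK-1, RBP7 was at or below 2.26 TPM. Over the family, 0 genes were higher and 0 lower past 2-fold with RARγi-1 in PK-1, 0 and 1 with RARγi-2 in PK-1, 1 and 1 with RARγi-1 in Panc-1, and 0 and 1 with RARγi-2 in Panc-1. Of all entries, 9.25% were higher and 4.96% lower with RARγi-1 in PK-1, and 12.1% and 12.6% with RARγi-2. In Panc-1 these shares were 7.4% and 6.03% with RARγi-1, and 8.5% and 11.2% with RARγi-2. Only 3 or 4 genes of the family were above the floor in each comparison, so no count is read as particular to it.

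The ratio of FABP5 to CRABP2 was then computed in each library, with no added TPM. FABP5 transcripts were 4.45 times as abundant as CRABP2 transcripts in PK-1 Control, 1.63 times with RARγi-1 and 3.56 times with RARγi-2. In Panc-1 the ratio was 1.01 in Control, 2.08 with RARγi-1 and 4.47 with RARγi-2. The ratio was thus below the control in both treated PK-1 libraries and above it in both treated Panc-1 libraries. The change from 4.45 to 3.56 in PK-1 is smaller than the fold change spread of that line, so its direction is not resolved. A ratio also carries the error of both genes.

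**Figure D2:**
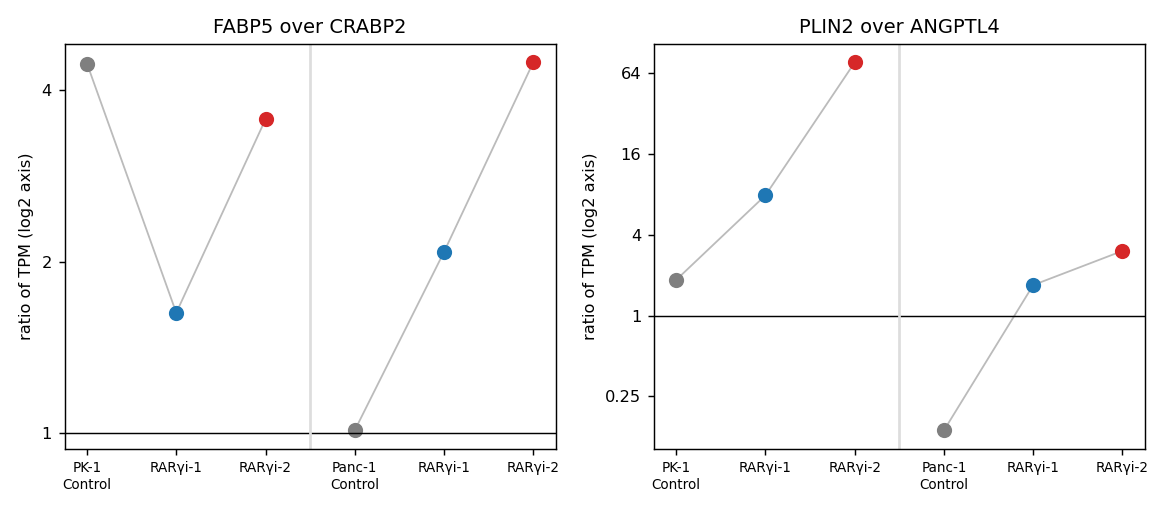
Ratio of TPM of FABP5 over CRABP2 (left) and of PLIN2 over ANGPTL4 (right) in the 6 libraries (log2 axes, 1 point per library, horizontal line at a ratio of 1). FABP5 over CRABP2 goes from 4.45 to 1.63 and 3.56 in PK-1 and from 1.01 to 2.08 and 4.47 in Panc-1, while PLIN2 over ANGPTL4 is above its control in all 4 treated libraries.

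The entries whose 4 fold changes lay closest to those of FABP5 were identified by the root mean square difference over the 4 comparisons, among 10628 entries that reached 10 TPM in some library. The 5 nearest were OAT (0.11, log2), ornithine aminotransferase, TOMM40 (0.15), the channel of the mitochondrial outer membrane translocase, WDR77 (0.16), a partner of the arginine methyltransferase PRMT5, SUPT16H (0.17), a subunit of the histone chaperone FACT, and SNORD17 (0.17), a small nucleolar RNA. OAT was at 156, 53.1 and 47.1 TPM in PK-1 Control, RARγi-1 and RARγi-2, and at 136, 96.2 and 108 TPM in Panc-1. Like FABP5, it lay past 2-fold below the control in both treated PK-1 libraries and short of 2-fold in Panc-1. With no added TPM, 4 of these 5 entries were again among the nearest 5.

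Next, the receptors were examined. PPARD (Entrez ID 5467), which encodes the ubiquitous PPARδ, was at 13.2, 21.1 and 19.8 TPM in PK-1 Control, RARγi-1 and RARγi-2. In Panc-1 it was at 24.0, 21.8 and 15.8 TPM in the same order. In PK-1 the log2 fold changes were 0.64 and 0.55, and those of Panc-1 were -0.13 and -0.57. Both treated libraries thus lay above the control in PK-1 and below it in Panc-1, each short of 2-fold. The value of -0.13, with RARγi-1 in Panc-1, lay within the fold change spread of 0.32.

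PPARG (Entrez ID 5468), the adipogenic receptor, was at 36.5, 49.4 and 39.1 TPM in PK-1 Control, RARγi-1 and RARγi-2, and at 44.8, 51.0 and 50.9 TPM in Panc-1. The 6 libraries lay within a narrow range and the fold changes were 0.43, 0.10, 0.18 and 0.18. PPARA (Entrez ID 5465), the receptor known from fasting liver, was at 1.69, 4.998 and 5.15 TPM in PK-1 and at 1.76, 3.00 and 3.65 TPM in Panc-1. PPARA rose past 2-fold in PK-1 with both inhibitors (1.15 and 1.19), and its values in Panc-1 were 0.53 and 0.75. At these low levels the added 1 TPM matters, and without it the 4 values were 1.56, 1.604, 0.77 and 1.05, which puts RARγi-2 in Panc-1 past 2-fold as well.

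PPARG was the most abundant of the 3 receptor transcripts and PPARA the least in each of the 6 libraries. The ratio of PPARG to PPARD was 2.77, 2.34 and 1.98 in PK-1 Control, RARγi-1 and RARγi-2 and 1.87, 2.33 and 3.21 in Panc-1. It was therefore lower than the control in both treated PK-1 libraries and higher in both treated Panc-1 libraries. The change from 2.77 to 2.34 is smaller than the fold change spread of PK-1, so its direction is not resolved. In Panc-1 the change from 1.87 to 2.33 is close to the spread of that line. A ratio also carries the error of both genes.

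The RXR partners and the coregulators of the PPARs were given by a list of 16 genes, 14 of them above the floor. RXRA was at 63.4, 82.0 and 57.9 TPM in PK-1 and at 15.8, 13.7 and 11.2 TPM in Panc-1, RXRB was at 15.3 to 37.4 TPM over the 6 libraries, and RXRG was at the floor. The coactivator gene PPARGC1A was also at the floor in all 6 libraries. In this list, 0 genes were higher past 2-fold in any of the 4 comparisons, and 1 was lower with RARγi-2 in PK-1 and 1 with RARγi-2 in Panc-1. The gene in PK-1 was PPARGC1B, a coactivator, which went from 3.41 TPM to the floor and was singled out after its value was seen. Of all entries, 9.25% were higher and 4.96% lower with RARγi-1 in PK-1, and 12.1% and 12.6% with RARγi-2. In Panc-1 the shares were 7.4% and 6.03% with RARγi-1, and 8.5% and 11.2% with RARγi-2. At such shares 14 genes are a small sample, and no count of 0 or 1 is read as particular to this list.

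The target genes were then compared, beginning with PLIN2. PLIN2 (Entrez ID 123) was at 46.1 TPM in PK-1 Control, 443 TPM with RARγi-1 and, with RARγi-2, 860 TPM. In Panc-1 it was at 18.0, 72.7 and 65.0 TPM in the same order. PLIN2 rose 9.42-fold and 18.3-fold in PK-1 (log2 fold changes of 3.24 and 4.19) and 3.89-fold and 3.48-fold in Panc-1 (1.96 and 1.80). It was the only one of the 9 genes past 2-fold in one direction in all 4 comparisons. Among all 15654 entries above the floor in any library, 336 (2.15%) were higher past 2-fold in all 4 comparisons and 273 (1.74%) lower. From the highest fold change, PLIN2 stood at rank 23 of 13965 and rank 22 of 14028 in PK-1 and at rank 155 of 14004 and rank 285 of 13921 in Panc-1. Its level moved from rank 3402 in the PK-1 Control library to rank 306 with RARγi-1 and rank 175 with RARγi-2.

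ANGPTL4 (Entrez ID 51129) was at 25.0 TPM in PK-1 Control, 56.1 TPM with RARγi-1 and, with RARγi-2, 11.1 TPM. In Panc-1 it was at 129 TPM in Control, 43.0 TPM with RARγi-1 and, with RARγi-2, 21.4 TPM. ANGPTL4 rose 2.20-fold with RARγi-1 and fell 2.14-fold with RARγi-2 in PK-1, the only one of the 9 genes on opposite sides past 2-fold within a line. In Panc-1 it fell 2.95-fold with RARγi-1 and 5.80-fold with RARγi-2, which put it at rank 313 of 14004 and rank 131 of 13921 from the lowest fold change. The antisense gene RAB11B-AS1 overlaps its exons by 1 base.

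PLIN2 and ANGPTL4 are both known PPAR targets and moved apart in 3 of the 4 comparisons. The ratio of PLIN2 to ANGPTL4 was 1.85 in PK-1 Control, 7.90 with RARγi-1 and 77.5 with RARγi-2. It was 0.139 in Panc-1 Control, 1.69 with RARγi-1 and 3.04 with RARγi-2. In the Panc-1 Control library ANGPTL4 was the more abundant transcript of the pair, and in the other 5 libraries PLIN2 was.

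ACADVL (Entrez ID 37) was at 138, 301 and 473 TPM in PK-1 Control, RARγi-1 and RARγi-2, and at 251, 254 and 283 TPM in Panc-1. It rose 2.18-fold and 3.42-fold in PK-1 (1.12 and 1.77), and its values in Panc-1, 0.02 and 0.18, lay within the fold change spread. The opposite-strand gene DLG4 overlaps 85 of the 4865 exonic bases of ACADVL in GENCODE 29 (1.75%) and reached at most 25.0 TPM.

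CPT1A (Entrez ID 1374), upstream of ACADVL in the same route, was at 42.01, 56.7 and 45.9 TPM in PK-1 and at 75.9, 72.1 and 76.9 TPM in Panc-1. None of its values, 0.42, 0.12, -0.07 and 0.02, was past 2-fold in the 4 comparisons. PDK4 (Entrez ID 5166) was at the floor in PK-1 Control and in all 3 Panc-1 libraries, and in PK-1 it was at 2.48 TPM with RARγi-1 and, with RARγi-2, 2.11 TPM. Its log2 fold changes in PK-1, 0.80 and 0.64, are lower limits because the control lies at 1 TPM or less. Without the added 1 TPM they were 1.31 and 1.08, past 2-fold but at levels near the floor. No fold change could be had in Panc-1.

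**Figure D3:**
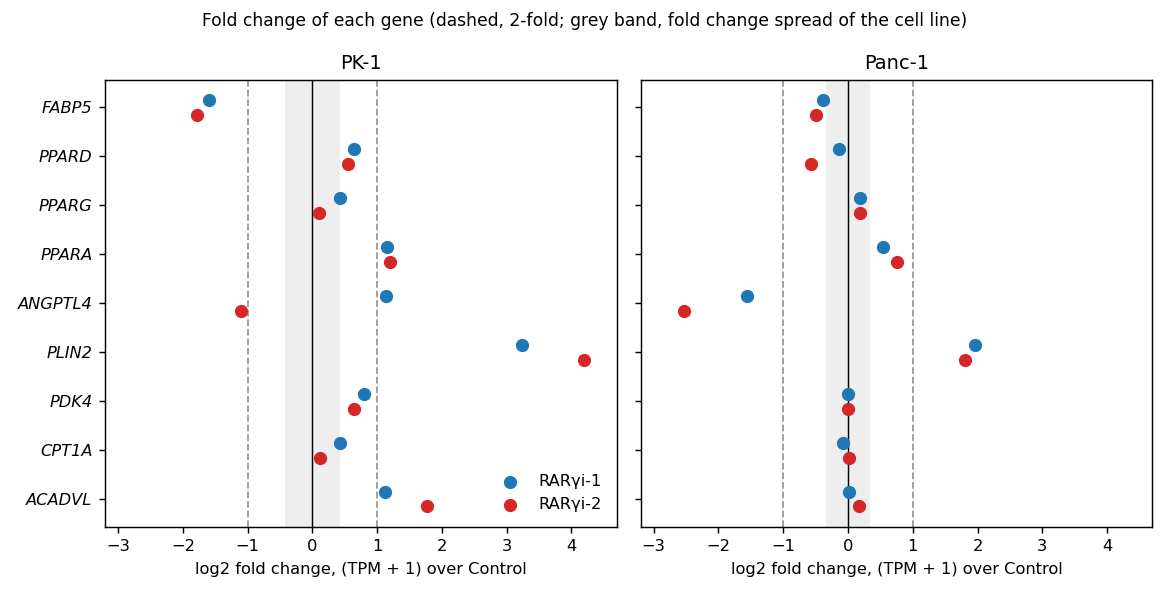
Log2 fold change, (TPM + 1) over Control, of each of the 9 genes for PK-1 (left panel) and for Panc-1 (right panel), with RARγi-1 in blue, RARγi-2 in red, dashed lines at 2-fold and a grey band for the fold change spread of the line (0.41 and 0.32). PLIN2 lies past 2-fold above Control in all 4 comparisons, while FABP5, PPARA and ACADVL are past 2-fold in PK-1 only on this scale.

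Taking the 9 genes as a group, 4 were higher past 2-fold with RARγi-1 in PK-1 (PLIN2, PPARA, ANGPTL4 and ACADVL) and 1 was lower (FABP5), where 9.25% of the 13965 entries tested were higher and 4.96% lower. With RARγi-2 in PK-1, 3 were higher (PLIN2, ACADVL and PPARA) and 2 lower (FABP5 and ANGPTL4), against 12.1% and 12.6% of 14028 entries. With RARγi-1 in Panc-1, 1 was higher (PLIN2) and 1 lower (ANGPTL4), against 7.4% and 6.03% of 14004 entries. With RARγi-2 in Panc-1, the same genes were higher and lower, 1 each, against 8.5% and 11.2% of 13921 entries. In Panc-1 a count of 1 among the 8 genes above the floor is close to these shares. The median log2 fold change over the genes above the floor was 0.80 and 0.55 in PK-1 (9 genes) and -0.03 and 0.10 in Panc-1 (8 genes), beside 0.15, 0.03, 0.09 and -0.03 over all entries.

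The inhibitors were set side by side within each line, since their doses are not stated. RARγi-2 minus RARγi-1 was past 2-fold in PK-1 for 1 of the 9 genes, ANGPTL4, which was lower with RARγi-2 by a log2 difference of -2.24, and for 0 genes in the higher direction. Over all 14020 entries, 4.48% were lower and 1.36% higher past 2-fold. The next largest differences in PK-1 were 0.96 for PLIN2 and 0.65 for ACADVL, both higher with RARγi-2, while FABP5 (-0.19), PPARD (-0.09) and PPARA (0.04) lay within the fold change spread of 0.41. In Panc-1, 0 of the 9 genes were past 2-fold in either direction, where 0.724% of 13808 entries were higher and 2.14% lower with RARγi-2. The largest difference there was again that of ANGPTL4, at -0.98, and PLIN2 differed by -0.16.

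The control libraries also differed between the lines. Panc-1 Control was past 2-fold above PK-1 Control for 1 of the 9 genes, ANGPTL4 (2.32), and past 2-fold below it for FABP5 (-1.14) and PLIN2 (-1.31), that is 2 of 9. Over all 14618 entries, 15.7% were higher and 14.6% lower in Panc-1 Control. PPARD (0.82), CPT1A (0.84) and ACADVL (0.86) were higher in Panc-1 Control by less than 2-fold, and PPARA was level between the lines (0.03).

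Within each library the genes can be ordered by TPM. An order is called resolved here where the step exceeds the fold change spread. That spread was taken for the same entries between libraries and does not cover errors that differ between genes, so it is only a rough yardstick. In PK-1 Control FABP5 came first, followed by ACADVL, and PLIN2, CPT1A and PPARG came next with steps inside the fold change spread, so that their order is not resolved. In both treated PK-1 libraries PLIN2 came first, ACADVL next and FABP5 after them, each step larger than the spread. In Panc-1 Control ACADVL and FABP5 led without a resolved order, followed by ANGPTL4 and CPT1A. With either inhibitor in Panc-1, ACADVL led FABP5 by more than the spread, and PLIN2 stood beside CPT1A without a resolved order, where it had been below PPARD in the control. PPARA and PDK4 came last in all 6 libraries.

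The wider lipid pathway was described with lists of genes beside the 9. Of all entries, the shares higher and lower past 2-fold were 9.25% and 4.96% with RARγi-1 in PK-1, 12.1% and 12.6% with RARγi-2 in PK-1, 7.4% and 6.03% with RARγi-1 in Panc-1, and 8.5% and 11.2% with RARγi-2 in Panc-1. At such shares a list of this size is a small sample, and no count is read as particular to a list. In mitochondrial fatty acid oxidation, 19 of 20 genes were above the floor, with 0 higher and 1 lower with each inhibitor in PK-1, 1 higher and 0 lower with RARγi-1 in Panc-1, and 0 and 0 with RARγi-2 in Panc-1. The gene lower in PK-1 was HADH, the short-chain hydroxyacyl-CoA dehydrogenase, at 31.4, 9.80 and 4.63 TPM in Control, RARγi-1 and RARγi-2 (-1.58 and -2.53). In Panc-1, HADH was at 30.8, 18.9 and 16.8 TPM (-0.68 and -0.84). ECI1, an isomerase for unsaturated fatty acids, was at 124, 194 and 239 TPM in PK-1 and at 202, 421 and 374 TPM in Panc-1, where it rose 2.08-fold with RARγi-1. The median of the list was 0.05 and 0.01 in PK-1, against -0.15 and -0.18 in Panc-1.

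In peroxisomal fatty acid oxidation, 13 of 14 genes were above the floor in some library. In PK-1, 2 were higher and 0 lower with RARγi-1, and 2 were higher and 1 lower with RARγi-2. The genes that rose were CRAT, carnitine acetyltransferase, at 20.7, 51.6 and 64.9 TPM in Control, RARγi-1 and RARγi-2, and ECH1, a dienoyl-CoA isomerase, at 165, 346 and 338 TPM. In Panc-1, CRAT was at 31.9, 50.2 and 38.8 TPM and ECH1 at 731, 819 and 647 TPM, each short of 2-fold. CROT, carnitine octanoyltransferase, was at 14.04, 8.67 and 5.30 TPM in PK-1 and fell past 2-fold with RARγi-2 (-1.26). In Panc-1, 0 were higher and 2 lower with RARγi-1, and 0 and 0 with RARγi-2. CAT, catalase, was at 73.0, 35.5 and 40.9 TPM in Panc-1 and fell past 2-fold with RARγi-1 (-1.02), and in PK-1 it was at 65.8, 66.0 and 32.7 TPM. The list medians were 0.36, 0.13, -0.20 and -0.31.

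Lipid droplet and lipolysis genes other than PLIN2 numbered 18, with 14 above the floor in some library. In PK-1, 0 were higher and 0 lower with RARγi-1, and 3 were higher and 1 lower with RARγi-2. Of those that rose, MGLL, monoglyceride lipase, was at 53.2, 100.1 and 145 TPM in Control, RARγi-1 and RARγi-2. PNPLA2, adipose triglyceride lipase, was at 23.4, 41.6 and 79.1 TPM in PK-1, and its coactivator ABHD5 at 11.6, 19.9 and 26.6 TPM. In Panc-1, PNPLA2 lay below the control at 168, 96.1 and 141 TPM (-0.80 and -0.25), and ABHD5 was at 5.97, 8.10 and 7.91 TPM (0.39 and 0.36). The gene that fell was HILPDA, an inhibitor of that lipase, at 22.6, 18.5 and 10.5 TPM in PK-1 and at 30.2, 25.0 and 21.3 TPM in Panc-1. In Panc-1, 1 was higher and 1 lower with RARγi-1, and 0 were higher and 3 lower with RARγi-2. MGLL was at 8.02, 21.1 and 16.8 TPM there (1.29 and 0.98). PLIN3, the perilipin that is present in most tissues, was at 226, 106 and 82.7 TPM in Panc-1 (-1.09 and -1.44), and at 141, 182 and 140 TPM in PK-1. DGAT2, which makes triglyceride, fell from 52.2 TPM to 6.87 TPM with RARγi-2 in Panc-1 (-2.76) and was at or below 1.29 TPM in PK-1, and G0S2, a further lipase inhibitor, fell from 4.90 to 1.75 TPM in the same comparison and was at the floor in PK-1. PNPLA2, HILPDA and G0S2 were singled out after their values were seen. The list medians were 0.43, 0.30, -0.24 and -0.25, and PLIN2 stood above the other genes of the list in each comparison. PLIN2 and PLIN3 therefore lay on opposite sides of the control in both treated Panc-1 libraries, while PLIN1 and PLIN5 were at the floor in all 6.

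Of 18 genes of fatty acid uptake and activation, 11 were above the floor in some library, and CD36 and LPL were at the floor in all 6. VLDLR, a receptor for triglyceride-rich lipoproteins, was at 2.55, 11.6 and 7.23 TPM in PK-1 Control, RARγi-1 and RARγi-2 (1.83 and 1.21). In Panc-1 it went from the floor to 3.71 and 2.82 TPM, which gives lower limits of 1.24 and 0.93. LIPG, endothelial lipase, was at 43.4, 47.0 and 18.9 TPM in PK-1 and at 23.4, 17.7 and 8.51 TPM in Panc-1, and fell past 2-fold with RARγi-2 in both lines (-1.16 and -1.36). Its values with RARγi-1 were 0.11 and -0.39. Of the fatty acid transporters, SLC27A2 fell from 50.8 to 10.1 TPM with RARγi-2 in PK-1 (-2.22) and was at the floor in Panc-1, and SLC27A4 was at 73.2, 151 and 116 TPM in PK-1 (1.04 and 0.66). Over the list, 2 genes were higher and 0 lower with RARγi-1 in PK-1, 1 and 2 with RARγi-2 in PK-1, 1 and 0 with RARγi-1 in Panc-1, and 0 and 1 with RARγi-2 in Panc-1. The medians were 0.27, -0.24, 0.31 and 0.14.

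Of 11 other PPAR targets and pyruvate dehydrogenase kinases, 5 were above the floor in some library, and the classical targets UCP3 and ADIPOQ were at the floor in all 6. In this list 0 genes were past 2-fold in 3 of the comparisons, and 1 was lower with RARγi-2 in Panc-1. That gene was PDK2, a kinase of the same family as PDK4, at 16.3, 9.60 and 6.86 TPM in Panc-1 Control, RARγi-1 and RARγi-2 (-0.71 and -1.14). In PK-1, PDK2 was at 13.0, 18.3 and 15.9 TPM. The list medians were 0.28, 0.16, -0.05 and -0.22. Over the 7 lists with their 112 genes, of which not all were above the floor, 0 genes were higher and 0 lower past 2-fold in all 4 comparisons, where the shares over all entries were 2.15% and 1.74%.

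**Figure D4:**
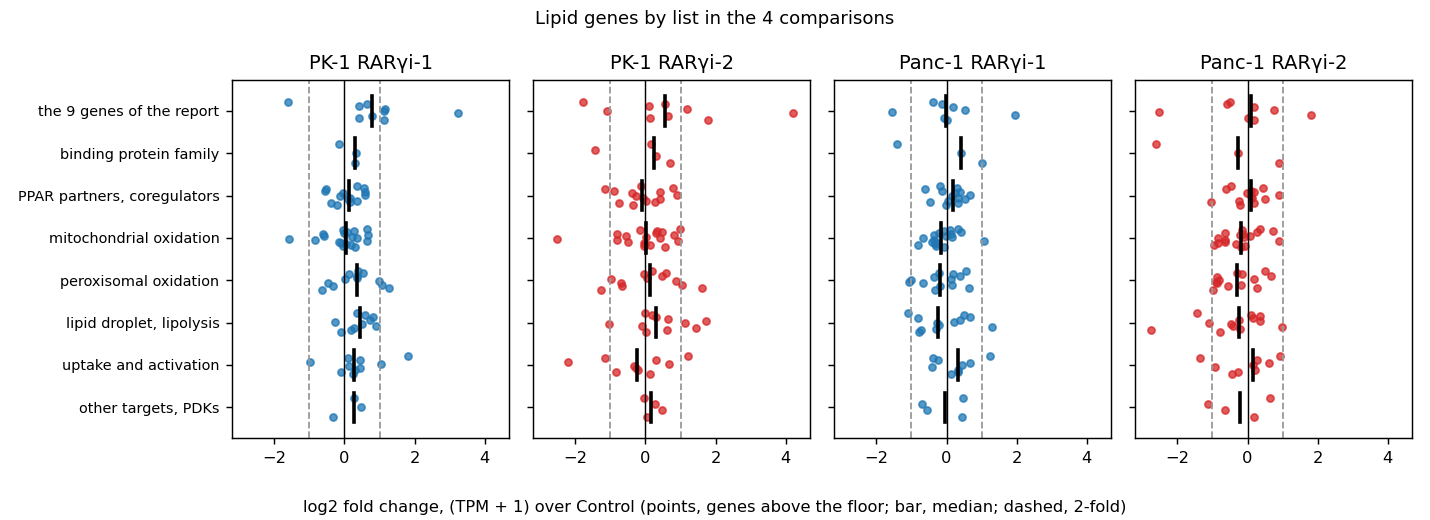
Log2 fold change, (TPM + 1) over Control, of the genes above the floor in each list (points), with the median (bar) and dashed lines at 2-fold, for the 4 comparisons. Single genes spread from -2.54 to 4.19 among the 9 and from -2.76 to 1.83 in the lists, and the medians lie between -0.03 and 0.80 for the 9 genes and between -0.31 and 0.43 for the lists.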

How the data were processed

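RNA was extracted with Trizol and libraries were made with a stranded mRNA kit. The authors deposited log2 TPM values, raised to 1 TPM where lower, as read from the values. The submitters' processing notes name hg38. The aligner, the counter, the annotation and the use of strand are not given in the sources used here. Values were returned to linear TPM, and fold changes were computed with 1 TPM added, over entries above the floor in either library. The 9 genes and the 7 lists were chosen with earlier results of these data known. Of each list, up to 4 genes were named, those past 2-fold in most comparisons with at least 5 TPM in a library, ties going to the largest mean change; some genes counted in the lists are not reported here by name. The spread is 1.4826 times the median absolute deviation between the treated libraries over the square root of 2, over entries with at least 5 TPM. RefSeq starts (GRCh38.p14) were searched on both strands. Alternatives were other pseudocounts, thresholds, filters and a rescaling by median ratios. Python 3.11.15, numpy 2.4.6, pandas 2.3.3 and matplotlib 3.10.9 were used. Replicates, tests and depth were not to be had, and independent cultures are not described.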

Additional observations from a re-analysis of the deposited data

Results flagged for a closer look

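In PPARD and PDK2 both treated libraries lay above the control in PK-1 and below it in Panc-1. For PPARD the log2 fold changes in PK-1 were 0.64 with RARγi-1 and 0.55 with RARγi-2, against -0.13 and -0.57 in Panc-1. PDK2 had 0.46 and 0.27 in PK-1, against -0.71 and -1.14 in Panc-1. The -0.13 of PPARD in Panc-1 lay within the fold change spread of 0.32, and the 0.27 of PDK2 in PK-1 within that of 0.41. The direction of these values is therefore not resolved. The difference between the lines was not tested, since there is 1 library per condition, and the values of a line share its control library.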

How the results depend on the processing

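No gene of the 9 past 2-fold changed direction under any alternative run. With no pseudocount the median of the 9 genes for RARγi-1 in PK-1 went from 0.80 to 1.13, and with a pseudocount of 0.1 TPM to 1.13 as well. Both settings put 2 genes in place of 1 higher past 2-fold with RARγi-2 in Panc-1, PPARA joining PLIN2. In PK-1 both gave 5 genes in place of 4 with RARγi-1 and 4 in place of 3 with RARγi-2, PDK4 joining. PDK4 was at 1.31 and 1.08 with no pseudocount and at 1.23 and 1.01 with 0.1 TPM, from a control at the floor. A threshold of 1.5-fold also gave 2 genes higher with RARγi-2 in Panc-1, and in PK-1 it gave 6 with RARγi-1 and 4 with RARγi-2. A threshold of 3-fold left 1 gene higher with RARγi-1 in PK-1, 1 lower with RARγi-2 in PK-1 and 0 lower with RARγi-1 in Panc-1. Rescaling by median ratios subtracts 0.11 (RARγi-1) and -0.05 (RARγi-2) from the fold changes in PK-1 and 0.09 and 0.00 from those in Panc-1. It moved no count of the 9 genes by over 1.5 times. Summing repeated symbols could change no value of the 9 genes, since each is listed once. Requiring at least 5 TPM in a library of the line also left these counts the same. That filter keeps PPARA in PK-1 only through its 5.15 TPM with RARγi-2. It therefore cannot show that the PK-1 counts hold without genes of low level. Rescaling turned the sign of 3 small values, ACADVL with RARγi-1 in Panc-1 (0.02 to -0.07) and RARγi-2 minus RARγi-1 for PPARD in PK-1 (-0.09 to 0.06) and for PPARG in Panc-1 (-0.00 to 0.08). Of the counts of the lists, 12 of 56 moved by more than 1.5 times with no pseudocount and 34 of 56 at 1.5-fold. No paired analysis was possible because each condition has 1 library and no replicate numbers. The deposited values keep no depth, so neither counting error nor replicate error is known, and values near 1 TPM are bounded by the floor.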
